A study of Mus musculus with 24 samples.

Results

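The miR-23, miR-27 and miR-24 families are made from a pair of paralogous gene clusters, Mir23a, Mir27a and Mir24-2 in one and Mir23b, Mir27b and Mir24-1 in the other. The 10 mature products described here were chosen by name as the listed products of these 6 hairpins, out of 1908 mature miRNA names in the count table. They are listed there as mmu-miR-23a-3p, mmu-miR-23b-3p, mmu-miR-23b-5p, mmu-miR-24-3p, mmu-miR-24-1-5p, mmu-miR-24-2-5p, mmu-miR-27a-3p, mmu-miR-27a-5p, mmu-miR-27b-3p and mmu-miR-27b-5p, where mmu stands for the mouse and is left out from here on. All 10 passed the filter on low counts, as did 421 miRNAs in all. The study sequenced small RNA of mouse livers, with 24 libraries in 3 groups of 8. AM132 samples came from C57Bl/6J mice that had become obese in 11 weeks of high fat feeding and then received an oligonucleotide complementary to miR-132, a 16-mer protected by locked nucleic acid (LNA). AM608 samples came from obese mice of the same diet that received an LNA 15-mer against miR-608, a primate miRNA that served as the control target. Both oligonucleotides were given intravenously at 3.3 mg/kg on 3 days running, and livers were taken 7 days later. RCD samples came from age-matched lean mice on regular chow, for which the labels give no injection, so that AM132 and AM608 each differ from RCD in both diet and injection. No uninjected obese mice were among the groups, so the share of either oligonucleotide in a difference between AM132 and AM608 cannot be told apart.

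A miRNA cluster is transcribed as a single primary RNA, from which Drosha cuts each hairpin and Dicer then frees a duplex of the 5p and 3p arms. Usually the guide arm is kept by Argonaute and the passenger arm is degraded, so arms of the same hairpin, and hairpins of the same cluster, can end at very different levels. In these families the 3p arms are the guides. miR-23 is known for repressing glutaminase in human cells, miR-27 for repressing Pparg and other lipid genes in fat and liver, and miR-24 for repressing Insig1, a brake on sterol synthesis, in mouse liver. The clusters are also well known from endothelial cells and blood vessel growth.

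Mature sequences of 9 of the 10 products were found in RefSeq (GRCm38.p6), with miR-23b-3p not matched. They are shown 5′ to 3′ with the seed (bases 2 to 8) in capitals, because the seed largely sets the targets and the seeds of miR-23 and miR-27, whose levels behaved differently here, are almost alike.
miR-23a-3p: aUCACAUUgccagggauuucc
miR-27a-3p: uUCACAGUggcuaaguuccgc
miR-27b-3p: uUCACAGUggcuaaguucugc
miR-24-3p: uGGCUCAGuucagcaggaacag
miR-23b-5p: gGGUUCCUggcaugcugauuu
miR-27a-5p: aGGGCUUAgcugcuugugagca
miR-27b-5p: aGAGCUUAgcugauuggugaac
miR-24-2-5p: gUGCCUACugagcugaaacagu
miR-24-1-5p: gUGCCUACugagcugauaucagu

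miR-27a-3p and miR-27b-3p shared the seed UCACAGU and differed at 1 of 21 positions, C19U, counted from the 5′ end with the miR-27a-3p base first. miR-24-2-5p and miR-24-1-5p shared the seed UGCCUAC and differed at 5 of the 22 positions compared. miR-27a-5p and miR-27b-5p had different seeds and differed at 8 of 22 positions. miR-23a-3p and miR-23b-3p are likewise near-identical paralogs with a shared seed. How reads were divided between such paralogs is not stated in the labels or files, and their separate values are uncertain to that extent. miR-24-3p is the same RNA from both clusters and its reads cannot be assigned to either. The longest run of bases shared with miR-132-3p, the target of AM132, was 4 nt in miR-23a-3p. It was 5 nt in miR-27a-3p, miR-27b-3p and miR-24-3p. Among the 5p arms it ran from 3 nt in miR-27a-5p to 6 nt in miR-24-2-5p. The median tested miRNA had 4 nt. miR-23b-3p could not be compared without its sequence, and binding of any product to the oligonucleotide was not tested.

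On GRCm38 the first cluster lies on the plus strand of chromosome 8, with Mir23a at 84208518 to 84208592, Mir27a at 84208672 to 84208758 and Mir24-2 at 84208815 to 84208921, a span of 404 bases. Mir23a and Mir27a are intergenic in GENCODE M21, and the end of Mir24-2 overlaps an exon of the lincRNA Gm26532. The second cluster lies on the plus strand of chromosome 13 within the protein-coding gene 2010111I01Rik, and spans 792 bases. Mir23b (63300484 to 63300557) is intronic there, whereas Mir27b (63300712 to 63300784) and Mir24-1 (63301208 to 63301275) overlap exons of some of its transcripts. Fancc covers the same bases on the opposite strand.

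The miRNA counts of a library summed to between 5926983 and 8734721 in AM132, between 6855571 and 8532049 in AM608, and between 5689143 and 8380591 in RCD. Samples are numbered in the labels, but none is tied to an animal of its own, and the p-values measure only the spread between these samples, which may be technical. miR-132-3p, the target, had 0 counts in every AM132 library (which allows up to 3 counts in each, for counting error only), against 92 to 341 in AM608 and 69 to 339 in RCD. miR-122-5p, the defining miRNA of hepatocytes, was abundant in every library, at 1128841 counts or more. RCD library 3 stood apart: the summed level of 8 neuronal markers was 1452 CPM (counts scaled to a common library size, as edgeR's cpm gives them), against a median of 473.6 CPM in RCD, and its summed hepatocyte level was the lowest of the RCD libraries.

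The 10 products together took between 1.82 and 2.15% of all miRNA counts in AM132, between 2.19 and 2.66% in AM608 and between 2.18 and 2.85% in RCD. miR-27b-3p was by far the most abundant, at 15850 ± 1550 CPM over all 24 libraries (mean ± SD), and ranked 12 among the 421 tested miRNAs. miR-24-3p (2920 ± 204 CPM) and miR-27a-3p (2184 ± 161 CPM) followed, each above the next in 24 of 24 libraries. miR-23b-3p (837.1 ± 199 CPM) and miR-23a-3p (789.4 ± 256 CPM) were not separated beyond their spread, the first being higher in 18 of 24 libraries. The 5p arms were lower: miR-24-2-5p averaged 307.7 ± 45.1 CPM, miR-24-1-5p 28.95 ± 5.26, miR-27a-5p 21.3 ± 6.89, miR-27b-5p 18.58 ± 3.59 and miR-23b-5p 5.885 ± 1.94 CPM (mean ± SD, n = 24 libraries each). miR-27a-5p and miR-27b-5p were not separated, the first being higher in 16 of 24 libraries. These are levels of reads, which adapter ligation can favour or disfavour by sequence, so the order of the products is that of the libraries.

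**Figure D1:**
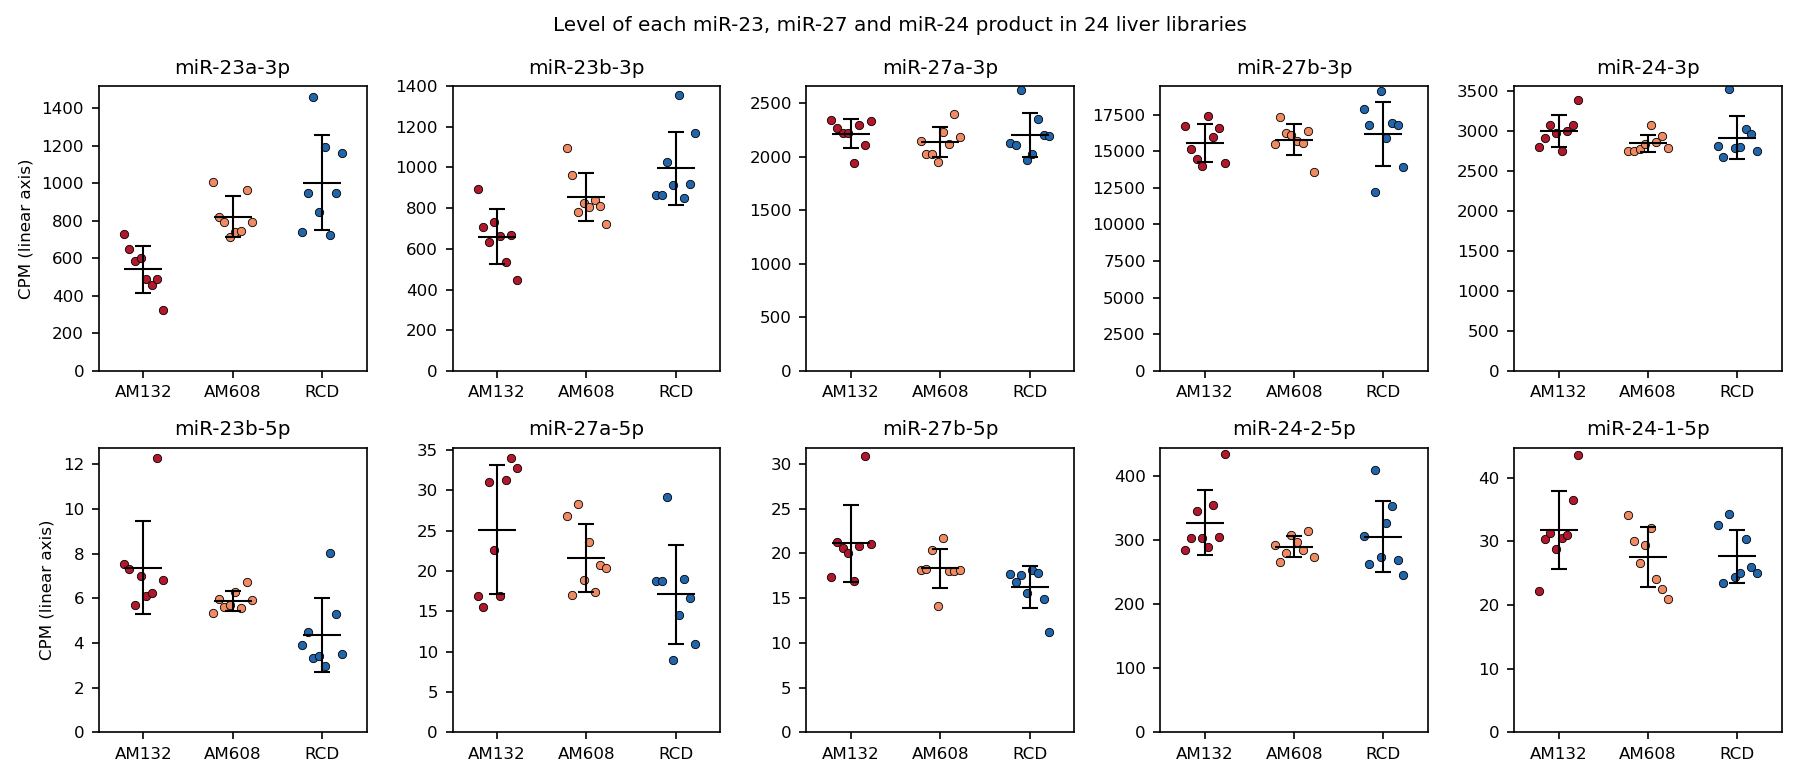
Level of each of the 10 products in CPM (linear axis from 0) in the 8 AM132, 8 AM608 and 8 RCD libraries; each point is a library, and the bar gives the mean ± SD. miR-23a-3p and miR-23b-3p sit lowest in AM132, while miR-27a-3p, miR-27b-3p and miR-24-3p overlap across the 3 groups.

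Both miR-23 guide strands were lower in AM132 livers than in AM608 livers, and neither the miR-27 guides nor miR-24-3p of the same clusters passed the test. This comparison sets the oligonucleotide against miR-132 beside the control oligonucleotide in the obese liver. miR-23a-3p was 324.0 CPM at the lowest, 539.2 at the median and 728.8 at the highest in AM132, against 715.1, 792.8 and 1009 CPM in AM608. AM132 library 1 was the only AM132 library to reach the AM608 range. The fitted log2 fold change was −0.60 (SE 0.149, edgeR adjusted p = 0.00594), or 0.658 times the AM608 level. miR-23b-3p was 446.7, 664.2 and 895.5 CPM (lowest, median and highest) in AM132, against 723.6, 817.8 and 1094 CPM in AM608. Here 6 of 8 AM132 libraries lay below all AM608 libraries, and libraries 1 and 4 did not. Its log2 fold change was −0.37 (SE 0.122, edgeR adjusted p = 0.0445). The call for miR-23b-3p did not survive the removal of AM132 library 3, 4, 5, 6, 7 or 8, of AM608 library 1, 2 or 5, or of RCD library 1 or 6, which makes 11 of 24 fits, with edgeR adjusted p up to 0.0988 and log2 fold changes from −0.398 to −0.306 in those fits. That for miR-23a-3p was kept in each of the 24 fits with 1 library left out (edgeR adjusted p from 0.00096 to 0.0167).

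The other 8 products did not pass in AM132 against AM608. miR-27b-3p averaged 15570 ± 1300 CPM in AM132 and 15790 ± 1080 CPM in AM608 (SD, n = 8 each), and its log2 fold change of −0.02 did not pass (SE 0.0758, adjusted p = 0.898 by edgeR). miR-27a-3p averaged 2216 ± 135 CPM in AM132 and 2136 ± 141 CPM in AM608 (SD, n = 8 each; 0.05, SE 0.0595, edgeR adjusted p = 0.671). miR-24-3p averaged 2999 ± 197 CPM in AM132 and 2844 ± 111 CPM in AM608 (SD, n = 8 each; 0.08, SE 0.055, edgeR adjusted p = 0.439). The intervals of 2 SE around these log2 fold changes run from −0.17 to 0.13, from −0.07 to 0.17 and from −0.03 to 0.19. The 5 passenger arms had log2 fold changes between 0.18 for miR-24-2-5p and 0.32 for miR-23b-5p (edgeR adjusted p of 0.298 or more), and 4 of them, miR-23b-5p being the exception, changed sign with library totals. The value for miR-23b-5p was 0.178 without AM132 library 7. No product separated the groups without overlap, as 6.65% of tested miRNAs did. Of the 10 products, 2 were thus called lower and 0 higher, where 8.31% of all 421 tested miRNAs were called lower and 4.04% higher (12.4% in either direction, or 17 higher and 35 lower, which became 8 higher and 83 lower with library totals). Without any single one of the 11 libraries named above, the count of products called lower was 1. The 2 called lower are near-identical paralogs whose reads were divided in a way not stated, so they may not be separate observations. The median log2 fold change was 0.13 over the 10 products and 0.05 over all tested miRNAs.

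The scaling of the libraries matters for the guides that did not pass. When each library was scaled by its total alone, and not by TMM factors (trimmed mean of M values), the median of all tested miRNAs in AM132 against AM608 shifted by −0.25. There miR-27b-3p was called as lower (−0.27, edgeR adjusted p = 8.85e-04), while miR-23a-3p stood at −0.84 and miR-23b-3p at −0.605, so that both miR-23 guides again had the lower values.

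**Figure D2:**
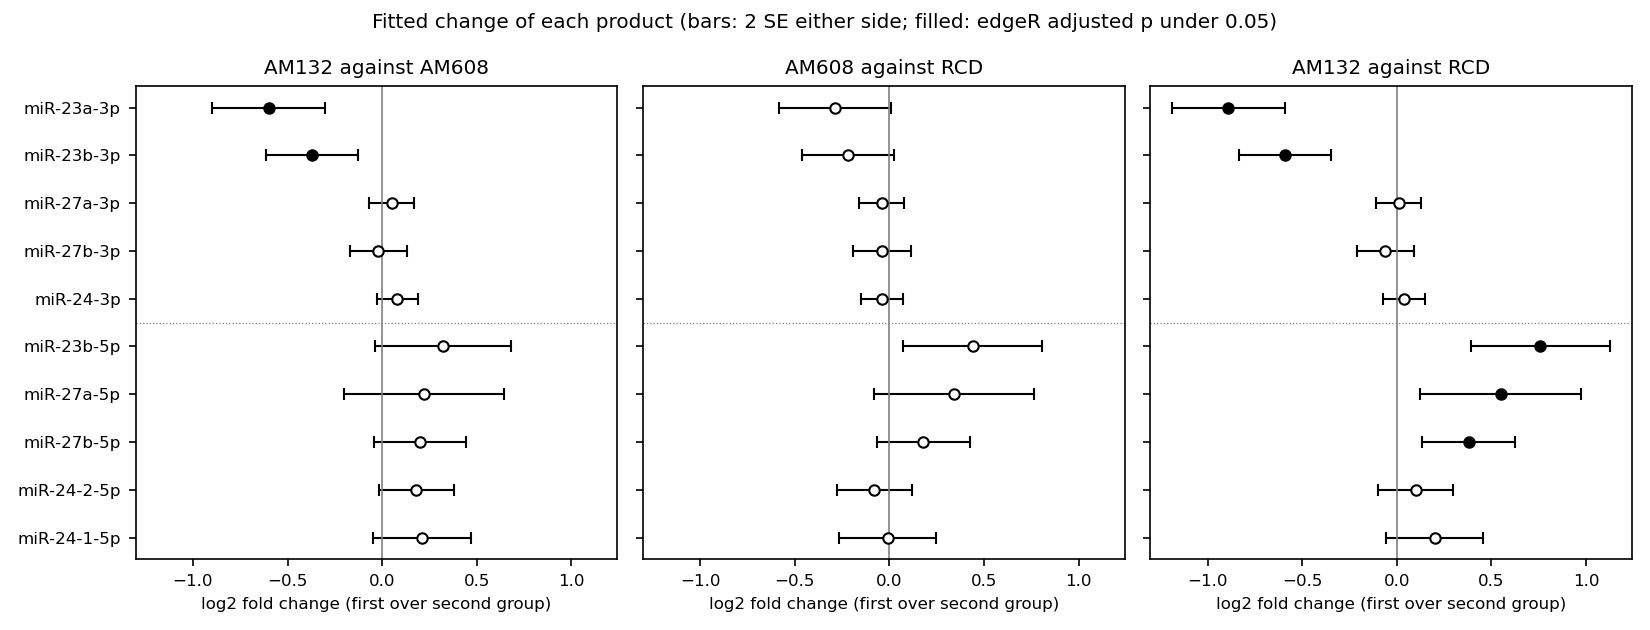
Fitted log2 fold change of each product in the 3 comparisons, with bars of 2 SE either side; filled points have an edgeR adjusted p under 0.05. The points of the miR-23 guides lie below 0 in all 3 panels, down to −0.89 in AM132 against RCD, whereas the 5p arms reach 0.76. In AM608 against RCD neither miR-23 guide was called, and their bars reach 0.01 and 0.02. Under scaling by library totals, which is not drawn, 4 of the 5p arms change sign in AM132 against AM608.

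Ratios of products counted in the same library do not depend on the scaling. The ratio of miR-23a-3p to miR-27a-3p, its neighbour in the cluster, was chosen after the values were seen and is described without a test. Its log2 value ranged from −2.85 to −1.69 in AM132 and from −1.59 to −1.09 in AM608, without overlap, and from −1.70 to −0.76 in RCD. As a geometric mean, miR-23a-3p had 23.8% of the counts of miR-27a-3p in AM132, against 38.3% in AM608 and 44.6% in RCD. The ratio of miR-23b-3p to miR-27b-3p in the paralogous cluster went the same way, at 4.17% in AM132, 5.39% in AM608 and 6.12% in RCD, with 6 of 8 AM132 libraries below all AM608 libraries. AM132 library 8 had the lowest value of both ratios. The ratios of miR-23a-3p and of miR-23b-3p to miR-24-3p, likewise chosen afterwards, did overlap between AM132 and AM608. Each had 7 of 8 AM132 libraries below all AM608 libraries. Of these ratios, only that of miR-23a-3p to miR-27a-3p was without overlap.

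The paralogs of each family were compared in the same manner, among 6 ratios and 3 comparisons tested together by two-sided exact permutation tests with Benjamini-Hochberg adjustment over the 18. miR-23a-3p was lower relative to miR-23b-3p in AM132: their log2 ratio was −0.30 ± 0.143 in AM132 and −0.05 ± 0.174 in AM608 (SD, n = 8 each), a difference of −0.24 (exact permutation p = 0.00824, adjusted p = 0.0371). Against RCD, at −0.01 ± 0.246, the difference was −0.29 (exact permutation p = 0.0073, adjusted p = 0.0371). How reads were divided between near-identical paralogs is not stated. This ratio and that of miR-27a-3p to miR-27b-3p are uncertain to that extent. Both calls were lost when RCD library 3 and AM132 library 8 were left out (exact permutation adjusted p = 0.0592 against AM608 and 0.0616 against RCD). The first was also lost without AM132 4, 5, 7 or 8 or AM608 3, 7 or 8 (exact permutation adjusted p up to 0.066, differences from −0.20 to −0.24), and the second without AM132 4, 5, 7 or 8 or RCD 2 (up to 0.066, from −0.265 to −0.29). miR-27a-3p held 14.3% of the miR-27b-3p counts in AM132, 13.5% in AM608 and 13.7% in RCD, and the exact permutation adjusted p was 0.579 or more in the 3 comparisons. miR-24-2-5p exceeded miR-24-1-5p by 10.4 times in AM132, 10.7 times in AM608 and 11.0 times in RCD, again with no comparison called (exact permutation adjusted p of 0.546 or more).

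**Figure D3:**
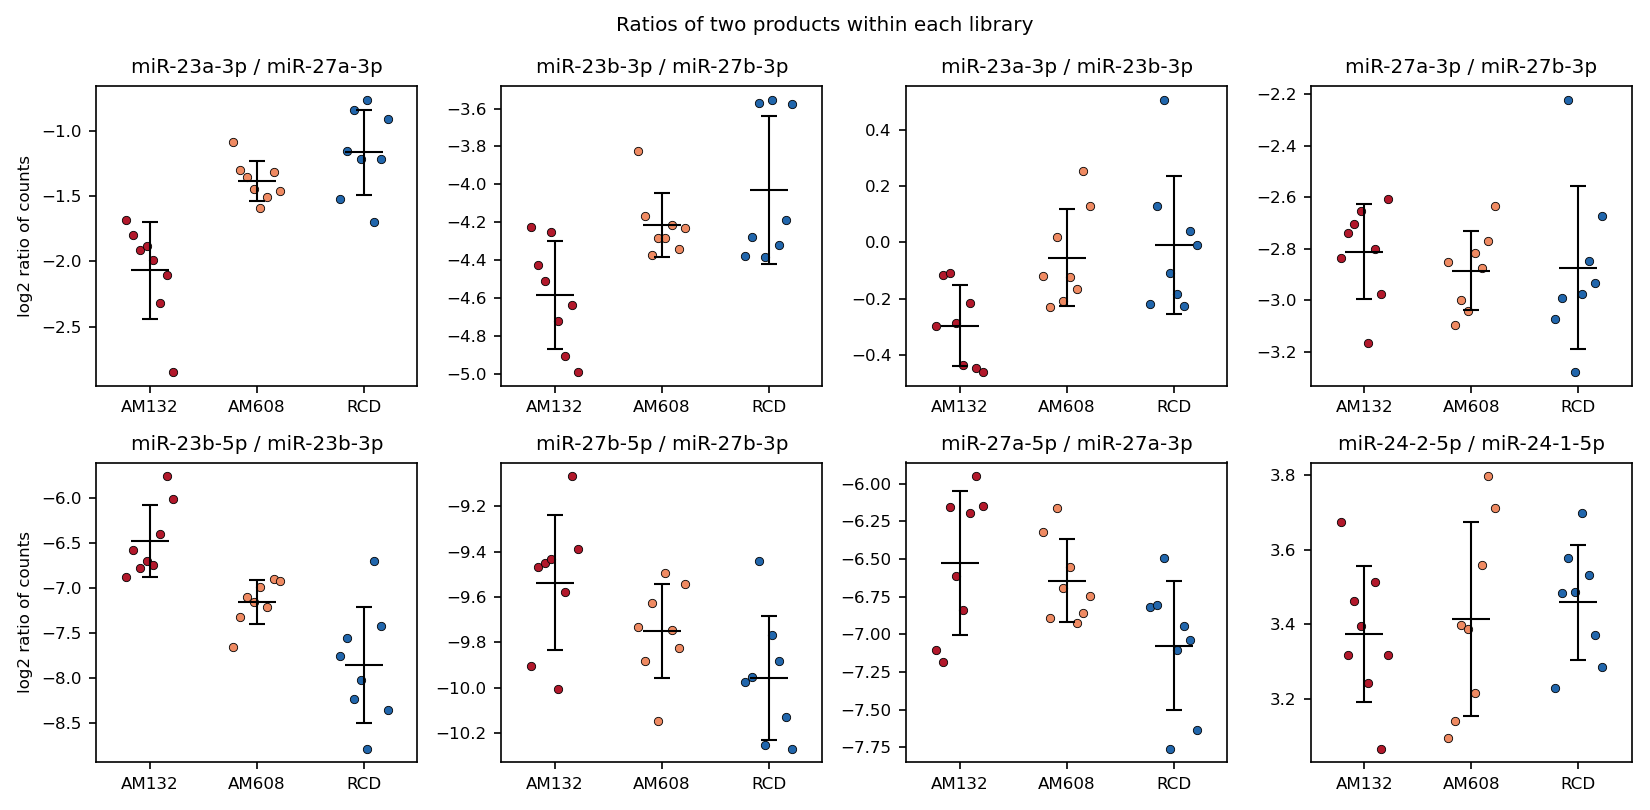
Log2 ratio of the counts of a pair of products in each library, by group, with the mean ± SD; the axes do not start at 0 and differ between panels. The ratio of miR-23a-3p to miR-27a-3p in AM132 (−2.85 to −1.69) lies wholly below that in AM608, and the ratio of miR-23b-5p to miR-23b-3p in AM132 (−6.87 to −5.75) wholly above it. The ratios of miR-23a-3p to miR-27a-3p and of miR-23b-3p to miR-27b-3p were chosen after the values were seen. That of miR-23b-3p to miR-27b-3p overlaps between AM132 and AM608.

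In obese AM608 livers against lean RCD livers, none of the 10 products passed, in a comparison that set diet and injection together against lean chow liver. edgeR called 0 of 10 here, 1 of 10 had an unadjusted p under 0.05, DESeq2 called 0 and limma voom 1, while edgeR called 28.7% of all tested miRNAs. miR-23a-3p was 715.1, 792.8 and 1009 CPM (lowest, median and highest) in AM608, against 725.2, 947.8 and 1463 CPM in RCD, where the highest value was that of library 3. The groups overlapped, as they did for all 10 products, where 9.26% of tested miRNAs had no overlap. The log2 fold change was −0.29 (SE 0.148, edgeR adjusted p = 0.163), or −0.19 without RCD library 3. miR-23b-3p had −0.22 (SE 0.122, edgeR adjusted p = 0.188), with 6 of 8 AM608 libraries below all RCD libraries, and −0.129 without RCD library 5 (edgeR adjusted p = 0.442). miR-23b-5p, the passenger arm of the same hairpin, had 5.36, 5.81 and 6.72 CPM in AM608, against 2.98, 3.70 and 8.05 CPM in RCD, the RCD maximum being library 6. It rested on 38 to 63 counts per AM608 library and 20 to 45 per RCD library. Its log2 fold change of 0.44 (SE 0.183) missed the threshold (edgeR adjusted p = 0.0761) and passed without AM132 7 (0.0436), RCD 6 (0.00436, log2 fold change 0.62) or RCD 7 (0.0496), with library totals (0.0347) and with limma voom (limma adjusted p = 0.0238). miR-27a-3p, miR-27b-3p and miR-24-3p had log2 fold changes of −0.04 each, with edgeR adjusted p of 0.63 or more. The median over the 10 products was −0.04, against −0.03 over all tested miRNAs.

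AM132 livers against RCD livers showed the widest changes: both miR-23 guides were lower, and 3 passenger arms of the clusters were higher. This comparison sets the obese liver that received the oligonucleotide against miR-132 beside the lean liver. It shares its libraries with the other comparisons and is no independent support for them. miR-23a-3p was 324.0, 539.2 and 728.8 CPM (lowest, median and highest) in AM132, against 725.2, 947.8 and 1463 CPM in RCD, with 7 of 8 AM132 libraries below every RCD library. The log2 fold change was −0.89 (SE 0.149, edgeR adjusted p = 4.8e-05), or 0.54 times the RCD level, and lay between −0.96 and −0.801 when 1 library was left out. miR-23b-3p was 446.7, 664.2 and 895.5 CPM in AM132, against 847.9, 917.7 and 1355 CPM in RCD, again with 7 of 8 AM132 libraries below every RCD library. Its log2 fold change was −0.59 (SE 0.122, edgeR adjusted p = 4.49e-04), or 0.663 times the RCD level, and both calls were kept in each of the 24 fits with 1 library left out.

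miR-23b-5p ranged from 5.71 to 12.28 CPM in AM132 (median 6.92, 31 to 84 counts), against 2.98 to 8.05 CPM in RCD (median 3.70). AM132 library 7 was the only one above all RCD libraries, and RCD library 6 lay inside the AM132 range. The log2 fold change was 0.76 (SE 0.184, edgeR adjusted p = 0.00206) and was called in each of the 24 fits with 1 library left out (edgeR adjusted p up to 0.0064). miR-27b-5p averaged 21.13 ± 4.28 CPM in AM132 and 16.24 ± 2.33 CPM in RCD (SD, n = 8 each), and 6 of 8 AM132 libraries lay above all RCD libraries. It rose by 0.38 on the log2 scale (SE 0.122, edgeR adjusted p = 0.0174). That call was lost without AM132 library 7 (0.285, edgeR adjusted p = 0.0513), with library totals (0.199, edgeR adjusted p = 0.296), when no miRNA was filtered out (edgeR adjusted p = 0.123) and when AM608 was kept out of the fit (edgeR adjusted p = 0.0641). miR-27a-5p averaged 25.14 ± 7.98 CPM in AM132 and 17.13 ± 6.15 CPM in RCD (SD, n = 8 each), which gave 0.55 as log2 fold change (SE 0.213, edgeR adjusted p = 0.0467), and 4 of 8 AM132 libraries lay above all RCD libraries. That call was lost in 18 of the 24 fits with 1 library left out (log2 fold changes from 0.442 to 0.574, edgeR adjusted p up to 0.102), being kept without AM132 1, 2 or 5, AM608 1 or RCD 3 or 6. It was also lost with library totals (0.33, edgeR adjusted p = 0.301) and in 6 of the other 8 settings.

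The arms of miR-24 did not pass against RCD, at 0.20 for miR-24-1-5p, 0.10 for miR-24-2-5p and 0.04 for miR-24-3p (edgeR adjusted p = 0.243, 0.449 and 0.587). miR-27b-3p (−0.06, SE 0.0758) and miR-27a-3p (0.01, SE 0.0595) did not either (edgeR adjusted p = 0.568 and 0.903). With library totals, where the median of all miRNAs in AM132 against RCD shifted by −0.19, miR-27b-3p was called as lower (−0.23, edgeR adjusted p = 0.00199). Of the 10 products, 3 were called higher and 2 lower, where 15.4% of all tested miRNAs were called higher and 18.8% lower (34.2% in either direction, or 65 higher and 79 lower, which became 27 higher and 105 lower with library totals). The 2 lower ones are the near-identical miR-23 paralogs and may not be separate observations. Without AM132 library 7, 3 of the 10 were called. The groups overlapped for each of the 10, and did not for 8.79% of all tested miRNAs. The median log2 fold change was 0.07 over the products and 0.03 over all tested miRNAs.

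**Figure D4:**
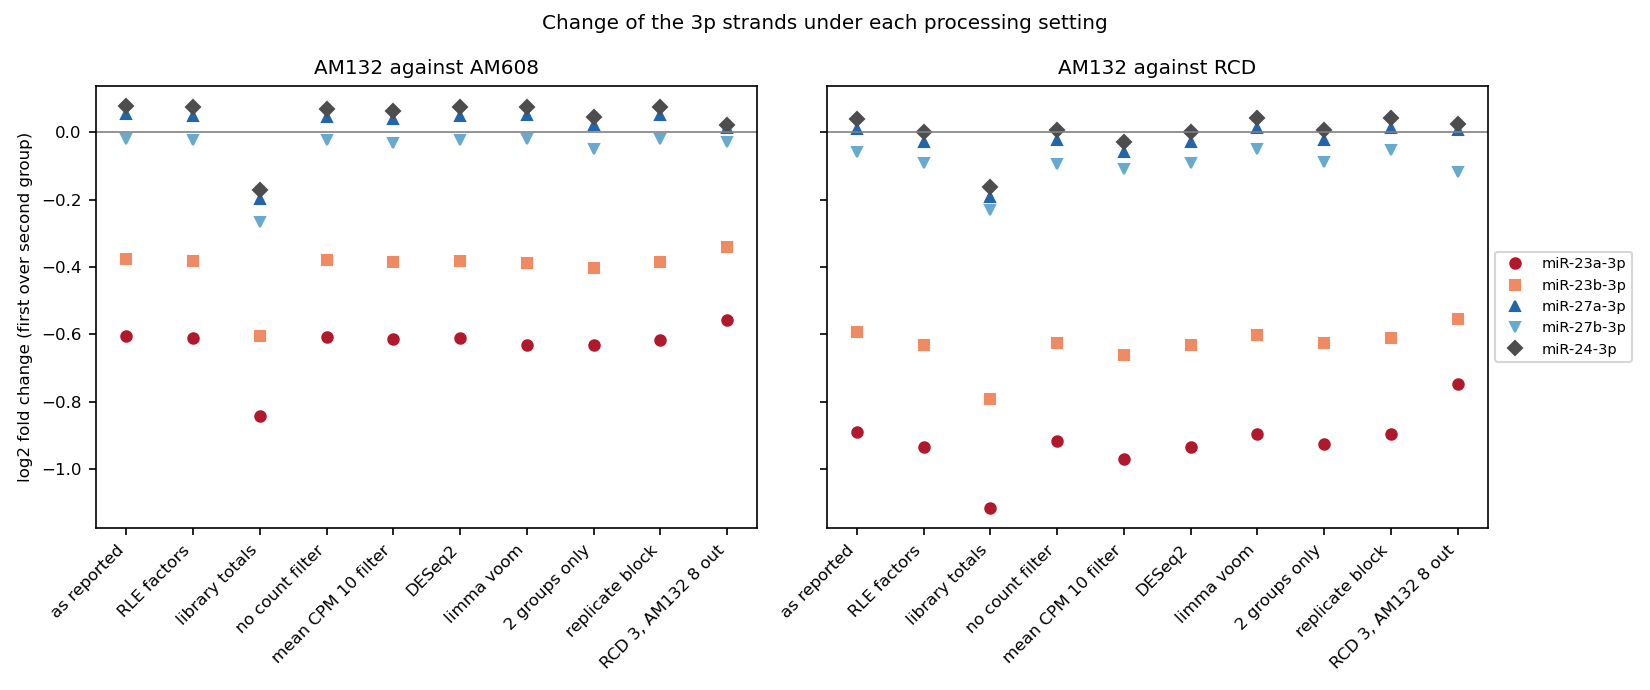
Log2 fold change of the 5 guide strands under the reported fit and 9 other processing settings, for AM132 against AM608 and AM132 against RCD; each marker is a guide strand. miR-23a-3p and miR-23b-3p stay below the other 3 guides in every setting drawn, and library totals move all 5 down together (miR-27b-3p to −0.27 and −0.23).

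The arms of Mir23b shifted against each other. The log2 ratio of miR-23b-5p to miR-23b-3p was −6.48 ± 0.401 in AM132 and −7.16 ± 0.248 in AM608 (SD, n = 8 each), and the values did not overlap. The difference of 0.68 had an exact permutation p of 0.000155, the smallest this design can give (adjusted p = 0.0028). In RCD the ratio was −7.86 ± 0.646, and AM132 lay 1.38 above it (exact permutation p = 0.000622, adjusted p = 0.00559). As geometric means, the passenger arm had 1.12% of the counts of the guide in AM132, 0.70% in AM608 and 0.431% in RCD. Both differences were called in each of the 24 fits with 1 library left out, at 0.58 to 0.74 and 1.25 to 1.54. With the replicate numbers as a block, both calls were lost (sign-flip permutation adjusted p = 0.0703 each), in a test that cannot give a p under 0.00781. miR-23b-5p had only 20 to 84 counts per library, and its own level did not pass in AM132 against AM608 (0.32, edgeR adjusted p = 0.298). Each ratio test used only the libraries of the groups compared. Leaving out a library of the remaining group thus kept the difference and its unadjusted p, and could change only the adjusted p. AM608 exceeded RCD by 0.70 (exact permutation p = 0.0135, adjusted p = 0.042), but that call was lost in 16 of the 24 fits with 1 library left out. It was kept without AM132 1, 2, 3 or 6, AM608 1 or RCD 3, 6 or 7. Where lost, differences ran from 0.566 to 0.742, with adjusted p up to 0.0774 by the exact permutation test. The losses without AM132 4, 5, 7 or 8 came from the adjustment alone, as the difference stayed at 0.699.

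For Mir27b the passenger arm had 0.135% of the guide counts in AM132, 0.116% in AM608 and 0.101% in RCD. The log2 ratio in AM132 exceeded that in RCD by 0.42 (exact permutation p = 0.014, adjusted p = 0.042). That call was lost in 20 of the 24 fits with 1 library left out (0.354 to 0.449 where lost, exact permutation adjusted p up to 0.0755). It was kept without AM132 1 or 5, AM608 1 or RCD 3. The losses without an AM608 library came from the adjustment alone, as the difference stayed at 0.421 there. For Mir27a the passenger arm had 1.09% of the guide counts in AM132, 1.00% in AM608 and 0.742% in RCD. This ratio did not pass in any comparison (exact permutation adjusted p = 0.752 for AM132 against AM608 and 0.0685 for each obese group against RCD). Without RCD library 3 the difference of AM608 from RCD was called (0.516, exact permutation adjusted p = 0.0217), and that of AM132 from RCD was called without RCD library 3 (0.636, exact permutation adjusted p = 0.0444), AM132 library 1 (0.635, 0.0436) or AM132 library 2 (0.647, 0.0406).

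The guides also differed in which other miRNAs they resembled over the 24 libraries, measured as the root mean square (RMS) difference of log2 CPM after centring each miRNA on its mean, a measure that favours miRNAs of low spread. miR-23a-3p and miR-23b-3p were each the most alike of 420 miRNAs to the other (0.22), followed by miR-30e-3p for both (0.29 for miR-23a-3p and 0.26 for miR-23b-3p), then miR-25-3p (0.31) for miR-23a-3p and miR-28a-5p (0.27) for miR-23b-3p. The likeness of the miR-23 pair is subject to the unstated division of reads between these paralogs. miR-27a-3p and miR-24-3p were likewise closest to each other (0.0766). After that pair came miR-450a-5p and miR-30d-5p (0.154 each) for miR-27a-3p, and miR-24-2-5p (0.124) and miR-140-5p (0.134) for miR-24-3p. miR-27b-3p was closest to miR-361-3p (0.127), miR-140-3p (0.129) and miR-425-3p (0.135). Between miR-23 and miR-27 of the same cluster the values were larger: miR-27a-3p ranked 38 for miR-23a-3p (0.475, against a median of 0.64 over all 420) and miR-27b-3p ranked 27 for miR-23b-3p (0.359, against a median of 0.546). From the other side the ranks were lower, at 247 for miR-23a-3p beside miR-27a-3p (median 0.426) and 152 for miR-23b-3p beside miR-27b-3p (median 0.437).

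Other miRNAs of liver cell types moved as follows. Of 7 mesenchymal and stellate markers, 2 were called lower in AM132 against AM608, miR-199a-3p and miR-199b-3p (−0.74 each, edgeR adjusted p = 0.00451), and 3 were called lower in AM132 against RCD, where 8.31% and 18.8% of all tested miRNAs were. These 2 names had almost the same values (2323 CPM each in AM132, 3879 and 3880 CPM in AM608, 3414 CPM each in RCD). They are therefore not separate observations, they make up 2 of the 3 calls against RCD, and the summed level counts both. In AM608 against RCD, miR-145a-5p was called lower (−0.65, edgeR adjusted p = 0.00145), 1 of the 7, where 15.2% of all were. The summed level of the 7 lay between 11380 and 18760 CPM in AM132, between 13140 and 22720 CPM in AM608 and between 15710 and 28970 CPM in RCD, with none of them at 0, and the highest RCD value in library 3. Its median was 14990 CPM in AM132, 18560 CPM in AM608 and 18430 CPM in RCD, with overlap between the groups, and its part in the lower miR-23 guides was not tested. In bulk tissue, fewer cells of a type and less RNA per cell cannot be told apart. The endothelial miR-126a-3p averaged 45800 CPM in AM132 and 43470 CPM in AM608 (0.08, edgeR adjusted p = 0.668), and was higher in AM132 than in RCD (0.36, edgeR adjusted p = 0.00136) and in AM608 than in RCD (0.29, edgeR adjusted p = 0.0104). miR-10a-5p was also higher in AM132 than in RCD (0.17, edgeR adjusted p = 0.0116). miR-151-5p went the other way, being lower in AM132 than in AM608 (−0.50, edgeR adjusted p = 0.0403, lost in 8 of the 24 fits with 1 library left out) and lower in AM132 than in RCD (−0.50, edgeR adjusted p = 0.0174). The other arm, miR-126a-5p, had −0.19 in AM132 against RCD and −0.16 in AM608 against RCD and did not pass (edgeR adjusted p = 0.43 and 0.552). The summed endothelial level over 5 markers, none of them at 0, lay between 58590 and 73930 CPM in AM132, between 56400 and 64080 CPM in AM608 and between 41670 and 58020 CPM in RCD. Most of that sum was miR-126a-3p and miR-10a-5p (means of 45800 and 13460 CPM in AM132), whereas miR-151-5p averaged 45.05 CPM. Of the 5, 2 were called higher and 1 lower in AM132 against RCD, where 15.4% and 18.8% of all tested miRNAs were. In AM132 against AM608, 1 was called lower, where 8.31% of all were. In AM608 against RCD, 1 was called higher, where 13.5% of all were. Of 9 tested hepatocyte miRNAs, 1 was called higher in AM132 than in AM608 (miR-192-5p, 0.58, edgeR adjusted p = 8.16e-04) and 3 were called higher in AM132 than in RCD, where 4.04% and 15.4% of all tested miRNAs were. The count against AM608 was 2 without AM132 library 1 or 4, 3 without AM608 library 1 and 6 without RCD library 3. Among other settings, the count of these hepatocyte miRNAs called was 6 at a mean CPM of at least 10 and 6 with only those groups fitted. It was 4 with DESeq2, 4 without RCD library 3 and AM132 library 8, and 2 with the replicate numbers as a block, for the same hepatocyte miRNAs. Their summed level lay between 531100 and 674500 CPM in AM132, between 350100 and 536400 CPM in AM608 and between 285300 and 578400 CPM in RCD, with overlap and with the highest median in AM132; the part of this shift in the lower miR-23 guides was not tested.

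Among 23 tested miRNAs known for roles in lipid metabolism, 2 were called higher and 1 lower in AM132 than in AM608, where 12.4% of all tested miRNAs were called in either direction. The higher ones were miR-185-5p, with a log2 fold change of 1.40 (adjusted p = 3.2e-09, edgeR), and miR-26a-5p, with 0.20 (adjusted p = 0.0445, edgeR). The lower one was miR-34a-5p (−0.75, adjusted p = 9.15e-04, edgeR). In AM608 against RCD, 5 were called higher and 4 lower, and those with the lowest p include miR-107-3p (0.81, edgeR adjusted p = 6.46e-06) and miR-103-3p (0.38, edgeR adjusted p = 3.04e-05), both higher, and miR-185-5p (−0.96, edgeR adjusted p = 1.55e-06). In AM132 against RCD, 6 were called higher and 3 lower. Of all tested miRNAs, 28.7% were called in AM608 against RCD and 34.2% in AM132 against RCD, and nothing particular to the list is read from its counts. In AM132 against AM608 the leukocyte, erythroid and neuronal lists had 0 called of 5, 3 and 3 tested members, counts too small to say much. The biliary list had 1 of 5, miR-429-3p (−1.19, edgeR adjusted p = 0.0445, lost in 11 of the 24 fits with 1 library left out). Against RCD, the neuronal miR-9-5p was called lower in AM608 (−4.27, edgeR adjusted p = 4.53e-04) and in AM132 (−4.83, edgeR adjusted p = 1.56e-04). RCD library 3 had the highest summed neuronal level of its group. The biliary miR-200c-3p was called higher in AM608 than in RCD (0.48, edgeR adjusted p = 0.0256). miR-23a-5p, the passenger arm of Mir23a, had 2 to 8 counts in the AM132 libraries, between 4 and 13 in those of AM608 and between 1 and 6 in those of RCD, and was not tested. miR-3074-5p, from the strand opposite Mir24-1 and Mir24-2, had between 9 and 22 counts in AM132, between 16 and 41 in AM608 and between 8 and 31 in RCD.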

How the data were processed

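Counts of mature miRNAs in 24 liver libraries were used as deposited by the authors: raw read counts per miRNA name. Per the labels' protocols, total liver RNA went into the NEBNext small RNA kit and was read on an Illumina NextSeq. FastQC is named in the submitters' processing notes; for aligner, trimming and build, nothing is stated in those sources. Without molecular identifiers, counts are of PCR reads. The table of tRNA fragments was not used.

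Samples were grouped by title and columns matched by group and number. Counts were tested with edgeR 4.0.16 (R 4.3.3): TMM factors, filterByExpr, the robust quasi-likelihood fit over all 24 libraries with group as the only term, and Benjamini-Hochberg adjustment over 421 miRNAs at a threshold of 0.05. An SE is the log2 fold change divided by the square root of the F statistic. CPM uses TMM-scaled library sizes. Ratios had 0.5 counts added to each side. Libraries of 1 group all differed beyond counting noise, with a chi-square of at least 30.2 per degree of freedom in 84 pairs. The fits were tried on simulated counts in which 200 of 421 miRNAs changed by 1 or 2 on the log2 scale. Between 83.6 and 86.7% of changes of 1 were called, and 3.62 to 4.43% of calls were false. Smaller changes, such as those called for the products, were not simulated. All 10 products are named, with the 3 most alike miRNAs of each guide and from each list at most 3 called miRNAs of the smallest p in each direction. The members and lists were chosen with earlier results of these data known. Alternatives used limma 3.58.1 and DESeq2 1.42.0.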

Additional observations from a re-analysis of the deposited data

Results flagged for a closer look

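Each group of 8 libraries was searched for a highest or lowest value far from its neighbour, over 60 sets of 8 values (10 products and 10 ratios in 3 groups), where chance marks about 5% of sets, or 3 of the 60, against 7 found. AM132 library 7 stood above its group in miR-23b-5p (12.28 CPM, next 7.54) and in miR-27b-5p (30.86 CPM, next 21.29). RCD library 3 was high in miR-24-3p (3518 CPM, next 3027). AM608 library 8 was low in miR-27b-3p (13560 CPM, next 15520). For miR-27b-5p, AM608 library 4 (14.13 CPM) and RCD library 8 (11.23 CPM, next 14.91) were low. AM608 library 1 had a high log2 ratio of miR-23b-3p to miR-27b-3p (−3.83, next −4.17).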

How the results depend on the processing

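Across 267 values of the 10 products under other settings, 228 kept their direction and side of the threshold, 12 lost the call, 5 gained it and 22 changed sign; of 720 with 1 library left out, 662, 30, 3 and 25 did. For the ratios these numbers were 41, 10, 1 and 2 of 54, and 370, 48, 5 and 9 of 432. miR-23a-3p in both AM132 comparisons, and miR-23b-3p and miR-23b-5p in AM132 against RCD, kept their calls in every fit that tested them.

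Products called in AM132 against AM608 numbered 2, but 3 with library totals, 1 without a filter, 1 with the replicate block and 1 to 2 with 1 library left out. In AM608 against RCD they numbered 0, but 1 with library totals, 1 with limma voom, 1 with the replicate block and 0 to 1 with 1 library left out. In AM132 against RCD they numbered 5, but 3 without a filter, 3 at a mean CPM of at least 10 (miR-23b-5p is not tested there), 3 with only those groups fitted, 4 each with RLE factors, library totals, DESeq2 and limma voom, and 3 to 5 with 1 library left out. Ratios called numbered 2, 1 and 3 in the same order, and 0, 0 and 0 with the replicate block. Without RCD library 3 and AM132 library 8, 1 ratio was called in AM132 against AM608; with an offset of 5 counts, 0 were in AM608 against RCD. With 1 library left out, ratios called ran from 1 to 2, from 0 to 3 and from 1 to 4. The causes were not tested.

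Whether the replicate numbers pair the samples cannot be told from these values. Of 24 same-number pairs, 10 correlated above 0.1 (median 0.0525, against −0.0191 for other numbers). Correlations of same-number pairs ran from −0.421 to 0.399, and pairing was not tested. With the block, miR-23b-3p in AM132 against AM608 had an edgeR adjusted p of 0.0501, miR-23b-5p in AM608 against RCD passed (0.481, edgeR adjusted p = 0.0454), and the sign-flip permutation test of a ratio cannot give a p under 0.00781.

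Sign changes were all of values that did not pass. With library totals, AM132 against AM608 gave miR-24-3p −0.172, miR-24-1-5p −0.028, miR-24-2-5p −0.072, miR-27a-3p −0.197, miR-27a-5p −0.034 and miR-27b-5p −0.047. AM608 against RCD gave miR-24-3p 0.009, miR-24-1-5p 0.025, miR-27a-3p 0.005 and miR-27b-3p 0.033. AM132 against RCD gave miR-24-3p −0.164, miR-24-1-5p −0.003, miR-24-2-5p −0.106 and miR-27a-3p −0.193. At a mean CPM of at least 10, AM132 against RCD gave miR-24-3p −0.029 and miR-27a-3p −0.059; miR-27a-3p was −0.03 with RLE factors, −0.03 with DESeq2, −0.023 without a filter and −0.023 with only those groups fitted. Without RCD library 3 and AM132 library 8, AM608 against RCD gave miR-24-3p 0.004, miR-24-1-5p 0.037, the ratio of miR-27a-3p to miR-27b-3p 0.081 and that of miR-23a-3p to miR-23b-3p 0.027. With 1 library left out, AM132 against AM608 ran from −0.001 to 0.076 for miR-27a-3p and from −0.085 to 0.015 for the ratio of miR-24-2-5p to miR-24-1-5p. AM608 against RCD ran from −0.05 to 0.004 for miR-24-3p, −0.056 to 0.051 for miR-24-1-5p, −0.089 to 0.02 for miR-27b-3p, −0.071 to 0.081 for miR-27a-3p to miR-27b-3p and −0.091 to 0.027 for miR-23a-3p to miR-23b-3p. AM132 against RCD ran from −0.001 to 0.06 for miR-24-3p and −0.032 to 0.039 for miR-27a-3p. At 20 to 84 counts per library, miR-23b-5p is limited by counting error.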
